A study of Caenorhabditis elegans with 2 samples.

Results

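LIN-39, the mid-body Hox protein of Caenorhabditis elegans, was mapped by chromatin immunoprecipitation and sequencing (ChIP-seq) in whole L2 larvae, and its candidate regions are described here at 10 genes that give motor neurons of the ventral nerve cord their final character. The genes were a named set, chosen by symbol from 19973 protein-coding genes of the nuclear chromosomes (Ensembl release 115, WBcel235). Of the 10 genes, 5 are used by cholinergic motor neurons (unc-17, cho-1, unc-129, del-1 and slo-2) and 4 by GABA motor neurons (unc-25, unc-47, oig-1 and ttr-39). The last, ida-1, is used by the VC motor neurons of the hermaphrodite ventral cord and was kept apart. A region was counted for a gene where its summit, the point of highest signal, lay between 5 kb upstream of the gene and the gene's end. By this rule 40 of the 30000 regions in the list from both replicates, the joint list, belonged to the 10 genes.

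There was 1 group, of 2 biological replicates. The worms were of strain OP18, of mixed sex, carrying the integrated transgene wgIs18 for eGFP-tagged LIN-39 in an unc-119(ed3) mutant background. The tagged protein therefore came from a transgene in 1 strain, and no other genotype, stage, factor or control library was among the samples analysed. Motor neurons are a small part of a whole larva, so a site bound in few cells and a site bound weakly in many cannot be told apart.

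As background, terminal identity genes are those a finished neuron keeps on: the enzymes, transporters, channels and signals that make it cholinergic or GABA-releasing. In cholinergic ventral cord neurons the COE-type factor UNC-3 is known to switch these genes on, with LIN-39 as a partner in the mid-body. The Pitx-type factor UNC-30 does so in the D-type GABA neurons, and LIN-39 is also known to act on genes of VD and VC neurons.

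The authors' candidate lists are described as holding peaks and background together. Each held 30000 regions, and a gene window with a region was therefore common. All 10 genes had at least 1 region in the list from both replicates, where 87.7% of all coding genes did. None of the 10 had a peak on the authors' optimal list, where 2.54% of coding genes did. What separated the genes was rank, counted from 1 for the strongest signal value of a list (a joint rank is one in the joint list). The caller's signal value ran from 15.2 to 174.5 in the list from both, with a median of 19.0, and the lowest optimal peak stood at 42.4. The strongest region at any of the 10 genes reached 36.9.

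Regions among the 2000 strongest of that list were found at 4 of the 10 genes, namely slo-2, ttr-39, unc-25 and ida-1. The share over all coding genes was 13.8%. Long windows hold more regions, and of the 10 windows 5 were of 10 kb or more. Among these 3 of 5 had such a region (23.2% of coding genes with windows that long), and among the shorter windows 1 of 5 (12% of coding genes). The 10 genes were picked with earlier results known, so these counts are given as a description. The next regions in rank lay outside the limit, at oig-1 (rank 2622), slo-2 (2890 and 2976) and del-1 (3363).

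The sequences at the 4 strongest sites are shown first, because the rest of the account turns on them. Each covers up to 100 bp to either side of the summit, read 5′ to 3′ on the gene's own strand from the WBcel235 genome of RefSeq. Capitals mark matches to 5 short words searched on both strands. TGATNNAT is a word of Hox with Pbx proteins, TAATTA the homeodomain core, CCCNNGGG a COE-type word, TAATCC a Pitx-type word and GAGAGA a GA repeat.
slo-2, rank 639, minus strand, chrX:11398343-11398543: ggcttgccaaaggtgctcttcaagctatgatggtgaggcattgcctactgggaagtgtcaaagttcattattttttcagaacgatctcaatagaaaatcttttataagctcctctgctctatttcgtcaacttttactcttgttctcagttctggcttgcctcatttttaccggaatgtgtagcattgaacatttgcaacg
ttr-39, rank 531, minus strand, chrIV:10089878-10090065: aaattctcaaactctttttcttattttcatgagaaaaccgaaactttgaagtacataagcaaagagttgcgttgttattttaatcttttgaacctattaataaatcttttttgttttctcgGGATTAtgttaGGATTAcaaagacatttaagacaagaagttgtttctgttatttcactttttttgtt
unc-25, rank 1718, plus strand, chrIII:12944713-12944913: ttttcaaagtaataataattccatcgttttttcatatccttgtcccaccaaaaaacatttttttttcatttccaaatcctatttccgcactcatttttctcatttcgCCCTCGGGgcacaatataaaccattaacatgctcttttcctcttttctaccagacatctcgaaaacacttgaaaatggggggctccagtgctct
ida-1, rank 1076, plus strand, chrIII:5756655-5756855: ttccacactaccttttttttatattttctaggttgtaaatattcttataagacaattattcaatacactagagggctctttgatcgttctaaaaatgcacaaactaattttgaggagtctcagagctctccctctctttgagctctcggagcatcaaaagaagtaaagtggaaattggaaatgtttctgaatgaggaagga
The slo-2 site lies over coding sequence for 154 of its 201 bases and holds none of the 5 words. The ttr-39 stretch ends at the annotated 5′ end of the gene and carries the Pitx-type word in 2 places, both on the opposite strand (GGATTA as printed). At unc-25 the COE-type word stood inside the intron. The ida-1 site, also intronic, held none of the words.

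**Figure D1:**
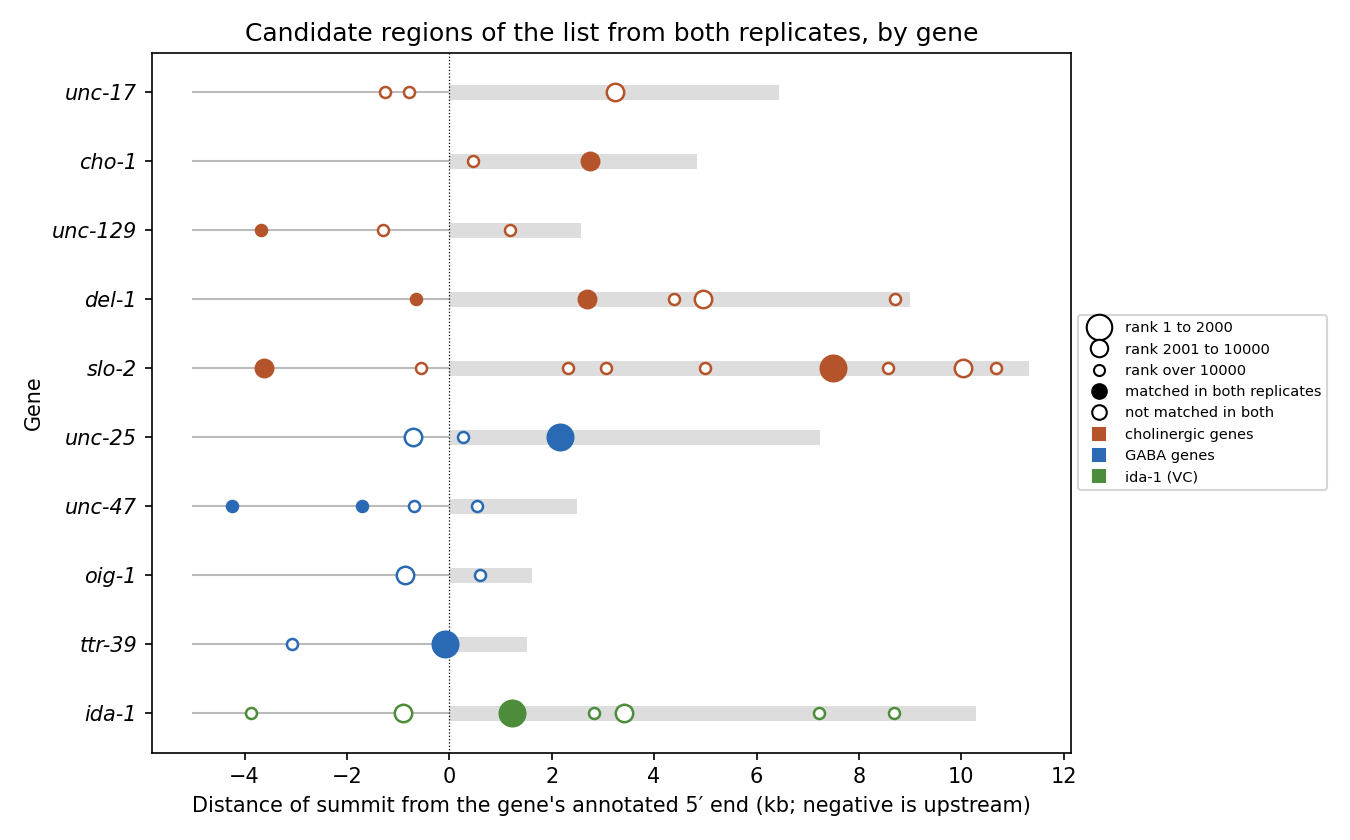
Positions of the 40 candidate regions of the list from both replicates. Each row is a gene, the x axis is the distance of the summit from the annotated 5′ end in kb, the grey bar is the gene body, larger circles are stronger ranks, and filled circles are regions overlapped by a region in each replicate. The 4 largest circles are at slo-2, unc-25, ttr-39 and ida-1, and all 4 are filled.

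The replicates were compared by asking whether a region of each replicate's own list overlapped the region of the joint list by at least 1 bp, taking the strongest where several did. Of the 40 regions, 11 were overlapped in both replicates (27.5%, 95% exact Clopper-Pearson interval 14.6 to 43.9), against 34.9% of the whole list. A further 12 were overlapped in replicate 1 alone, 13 in replicate 2 alone and 4 in neither. In the 11 doubly matched regions the replicate summits stood at medians of 20 bp (replicate 1) and 26 bp (replicate 2) from the joint summit, with largest gaps of 180 bp and 285 bp. The intervals cover the counting of regions only, as if regions were independent, and not the spread between genes or between replicates. Read depth is also unknown.

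Agreement followed rank. All 4 regions at ranks 1 to 2000 were matched in both replicates, where 91.3% of the whole list at those ranks were. Beyond rank 2000 and up to rank 10000 the count was 3 of 10 (30.0%, exact interval 6.67 to 65.2), where the whole list had 60.5%. Below rank 10000 it was 4 of 26 (15.4%, exact interval 4.36 to 34.9), where the whole list had 19.0%. By gene, 8 of the 10 had at least 1 region matched in both replicates, against 52.7% of coding genes. The count was 4 of 5 in windows of 10 kb or more (67.9% of coding genes) and 4 of 5 in shorter ones (49.8% of coding genes). The exceptions were unc-17 and oig-1.

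An overlap did not mean equal rank. Of the 10 genes 2, cho-1 and slo-2, had a region matched at rank 10000 or stronger in each replicate, a share near the 15.4% of coding genes that had one. Within the 2000 strongest of replicate 1 alone were regions at slo-2, ttr-39 and ida-1 (14.0% of coding genes had one), and within those of replicate 2 regions at del-1, slo-2 and oig-1 (14.2% of coding genes). The channel gene slo-2 was the single member on both counts, a state shared by 4.72% of coding genes.

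**Figure D2:**
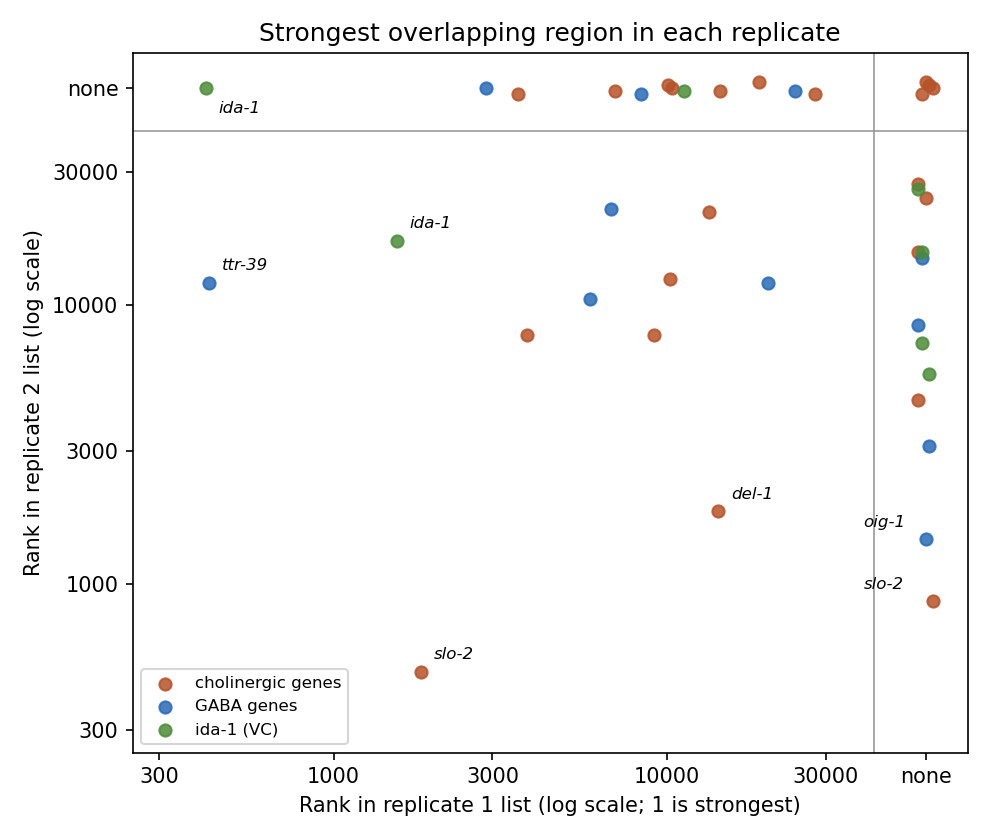
Rank of the strongest overlapping region in replicate 1 (x axis) and replicate 2 (y axis), both on log scales, for the 40 regions, with "none" where a list has no overlapping region. Points with a rank of 2000 or stronger in either replicate are named. One point, at slo-2 with ranks 1833 and 486, is inside 2000 on both axes.

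Among the cholinergic genes, the transporter genes unc-17 and cho-1 had best joint ranks near the middle of all coding genes, of which 50.1% had one at least as strong as unc-17 and 51.1% one at least as strong as cho-1. The gene unc-17, at IV:3618259-3624699, encodes the vesicular acetylcholine transporter and shares its start with cha-1, the choline acetyltransferase gene, so its regions cannot be assigned to one of the pair. Its 3 regions had joint ranks of 9493, 15641 and 23791. The strongest, in an intron 3236 bp downstream of the 5′ end, was matched in replicate 1 at rank 14481 and not in replicate 2. Those at 783 bp and 1266 bp upstream were matched in 1 replicate each, at rank 27926 in replicate 1 and rank 24148 in replicate 2. The longer window of cha-1, 15.8 kb, held 6 regions. Of these, 1 was matched in both replicates, and it lay outside the unc-17 window.

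The gene cho-1 (IV:13209730-13214566) encodes the high-affinity choline transporter, which takes up the precursor of acetylcholine. It had 2 regions, both intronic. The one 2756 bp into the gene had joint rank 9781 and stood at similar ranks in the replicates, 9191 in replicate 1 and 7825 in replicate 2, although the 5′ end of C48D1.9 was nearer. The other, 460 bp into the gene, had joint rank 21094 and was matched in replicate 1 at rank 10359. The stronger site is shown because it stood at rank 10000 or stronger in each replicate, and it holds none of the 5 words.
cho-1, rank 9781, minus strand, chrIV:13211710-13211910: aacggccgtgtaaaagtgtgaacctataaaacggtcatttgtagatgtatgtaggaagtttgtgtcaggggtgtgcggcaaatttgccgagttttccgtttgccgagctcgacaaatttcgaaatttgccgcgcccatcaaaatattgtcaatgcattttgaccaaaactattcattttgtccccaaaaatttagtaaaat

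The gene unc-129 (IV:9002839-9005410) encodes a TGF-beta family ligand made by dorsally projecting cholinergic neurons. Its strongest region, at joint rank 10439 (53.3% of coding genes had one at least as strong), lay in a coding exon 1192 bp from the 5′ end and was matched in replicate 2 at rank 4592. It was not matched in replicate 1. The region 1294 bp upstream (joint rank 27279) was matched in neither. The one 3687 bp upstream (joint rank 20688) overlapped regions of both replicates, at rank 13413 in replicate 1 and rank 21593 in replicate 2, but its replicate 2 partner was 285 bp away and its nearest coding 5′ end was that of C53D6.11.

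The DEG/ENaC channel subunit gene del-1 (X:14268081-14277082) is a marker of ventral cord B- and A-type neurons. Its strongest region, joint rank 3363 (22.2% of coding genes had one at least as strong), was intronic and 345 bp from the nearest annotated 5′ end of a del-1 transcript. The replicates placed it far apart, at rank 14289 in replicate 1 and rank 1825 in replicate 2. The region 649 bp upstream of the gene had joint rank 12747 and closer replicate ranks of 10255 in replicate 1 and 12441 in replicate 2. The remaining 3 had joint ranks of 7520, 16123 and 26784, of which the first was matched in replicate 1 at rank 3578. The strongest site is shown for its Hox-with-Pbx word, in capitals. Among the strongest sites of the 10 genes the word stood only here and at unc-129, where all 201 bases were coding. It was found at 17% of the whole list, so its presence at these sites is near that share and is a description only.
del-1, rank 3363, plus strand, chrX:14270663-14270863: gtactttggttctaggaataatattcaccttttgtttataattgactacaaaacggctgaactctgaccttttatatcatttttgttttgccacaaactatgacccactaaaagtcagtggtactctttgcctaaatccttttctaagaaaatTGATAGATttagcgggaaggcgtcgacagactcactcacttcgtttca

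The gene slo-2 (X:11394605-11405931), for a large-conductance potassium channel of the Slo family, had the most regions, 9 in a window of 16.3 kb. The strongest, joint rank 639 with a signal of 35.5, lay in coding sequence 2550 bp from the nearest slo-2 transcript start. Its ranks were 1833 in replicate 1 and 486 in replicate 2 and it was the only one of the 40 regions inside rank 2000 in each. A second doubly matched region, 3629 bp upstream at joint rank 2976, had ranks of 3813 in replicate 1 and 7848 in replicate 2, but was nearer to the 5′ end of F08B12.4. The region at joint rank 2890, again in coding sequence, was rank 869 in replicate 2 and unmatched in replicate 1. The other 6 had joint ranks between 15328 and 29183. Of all coding genes, 4.92% had a best joint rank at least as strong.

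Of the GABA genes, unc-25 (III:12942651-12949883) encodes glutamate decarboxylase, which makes GABA. Its strongest region lay in an intron 2162 bp from the 5′ end. The joint rank was 1718 (12% of coding genes had one at least as strong), while the replicate ranks were 5881 in replicate 1 and 10535 in replicate 2, both weaker. The summits coincided within 0 bp in replicate 1 and 17 bp in replicate 2. A region 702 bp upstream, inside the neighbouring gene epg-3, had joint rank 6387, and one 264 bp downstream of the 5′ end had rank 14550. Both were matched in replicate 2 alone, at ranks 8499 and 14801.

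The vesicular GABA transporter gene unc-47 (III:10183762-10186260) had 4 regions and the weakest best joint rank of the 10, 12117, with 58.8% of coding genes at least as strong. That region, 1702 bp upstream, was matched at rank 20187 in replicate 1 and rank 12053 in replicate 2, and was nearer to epac-1. The region 4240 bp upstream, inside epac-1, was also doubly matched, at rank 6784 in replicate 1 and rank 22027 in replicate 2. Near the gene's own start, 683 bp upstream, joint rank 14459 went with rank 24351 in replicate 1 and no match in replicate 2. A region in the coding sequence had joint rank 26811 but overlapped one of rank 3124 in replicate 2.

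The gene oig-1 (III:6524051-6525657) encodes a protein with 1 immunoglobulin domain that D-type neurons use in placing synapses. Its 2 regions split between the replicates, and 17.7% of coding genes had a best joint rank at least as strong. The one 859 bp upstream (joint rank 2622) was at rank 2873 in replicate 1 and had no match in replicate 2. The intronic one, 603 bp downstream of the 5′ end (joint rank 13380), was at rank 1449 in replicate 2 and had no match in replicate 1. Both are shown, since each is strong in 1 replicate. The upstream site holds the GA repeat, as TCTCTC on the printed strand, and the intronic site none of the 5 words.
oig-1 upstream, rank 2622, minus strand, chrIII:6526416-6526616: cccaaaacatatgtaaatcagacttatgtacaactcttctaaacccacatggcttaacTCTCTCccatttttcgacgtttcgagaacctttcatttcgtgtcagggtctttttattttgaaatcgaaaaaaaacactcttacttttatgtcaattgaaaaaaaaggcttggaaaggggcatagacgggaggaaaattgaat
oig-1 intron, rank 13380, minus strand, chrIII:6524954-6525154: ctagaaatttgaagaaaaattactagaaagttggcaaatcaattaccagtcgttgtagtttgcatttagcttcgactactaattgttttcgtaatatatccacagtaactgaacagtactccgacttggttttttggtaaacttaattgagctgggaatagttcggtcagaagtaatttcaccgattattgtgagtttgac

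The transthyretin-like gene ttr-39 (IV:10088367-10089877), a marker of D-type neurons, had the strongest joint rank of the 10, 531, with a signal of 36.9. The summit was 88 bp upstream of the 5′ end, the closest of the 40 to the 5′ end of its gene's model. Replicate 1 placed it at rank 423 and replicate 2 at rank 12022, with summits within 7 bp and 9 bp of the joint one. Its other region, 3082 bp upstream, had joint rank 21336, was matched in replicate 1 at rank 8401 and was nearer to ttbk-5. Of all coding genes, 4.13% had a best joint rank at least as strong, 3.34% in replicate 1 alone and 44.0% in replicate 2 alone.

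The VC gene ida-1 (III:5755539-5765816) encodes an IA-2-type membrane protein of dense-core vesicles. It had 7 regions in 15.3 kb, and 7.8% of coding genes had a best joint rank at least as strong. The strongest, joint rank 1076, lay in an intron 1216 bp from the 5′ end, at rank 1549 in replicate 1 and rank 17044 in replicate 2. A second intronic region, 3411 bp from the 5′ end, had joint rank 8874 and was rank 415 in replicate 1, with no match in replicate 2. The other 5 had joint ranks from 5874 to 22557. Of those, 4 were matched in replicate 2 alone and 1 in replicate 1 alone.

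**Figure D3:**
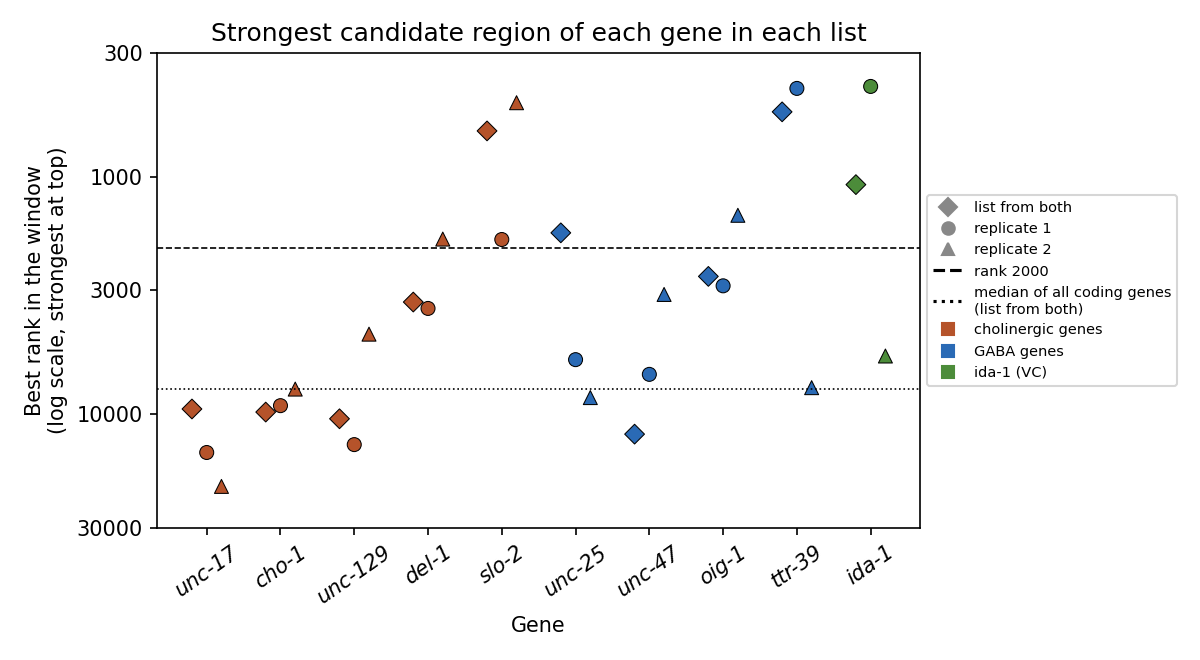
Strongest rank in the window of each gene (y axis, log scale, strongest at the top) in the list from both replicates, in replicate 1 and in replicate 2. The dashed line is rank 2000 and the dotted line the median best rank of coding genes with a region, 7785. All 3 symbols lie inside rank 2000 at slo-2 alone, and ttr-39 and ida-1 have replicate 1 far above replicate 2.

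Cholinergic and GABA genes were then set side by side. The 5 cholinergic genes held 22 regions in 59.2 kb of window, or 0.372 per kb (95% exact Poisson interval 0.233 to 0.563). The 4 GABA genes held 11 in 32.8 kb, or 0.335 per kb (0.167 to 0.599). The intervals overlapped widely, and both contained the 0.299 per kb of all coding gene windows. They cover the counting of regions only and not the spread between genes, which ran from 0.203 per kb (cho-1) to 0.551 per kb (slo-2). For ida-1 the density was 0.458 per kb (0.184 to 0.944). The ratio of cholinergic to GABA density was 1.11. It was 0.906 without slo-2, 0.994 with ida-1 counted among the GABA genes and 1.4 with windows of 10 kb upstream, so no order of the classes was established.

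**Figure D4:**
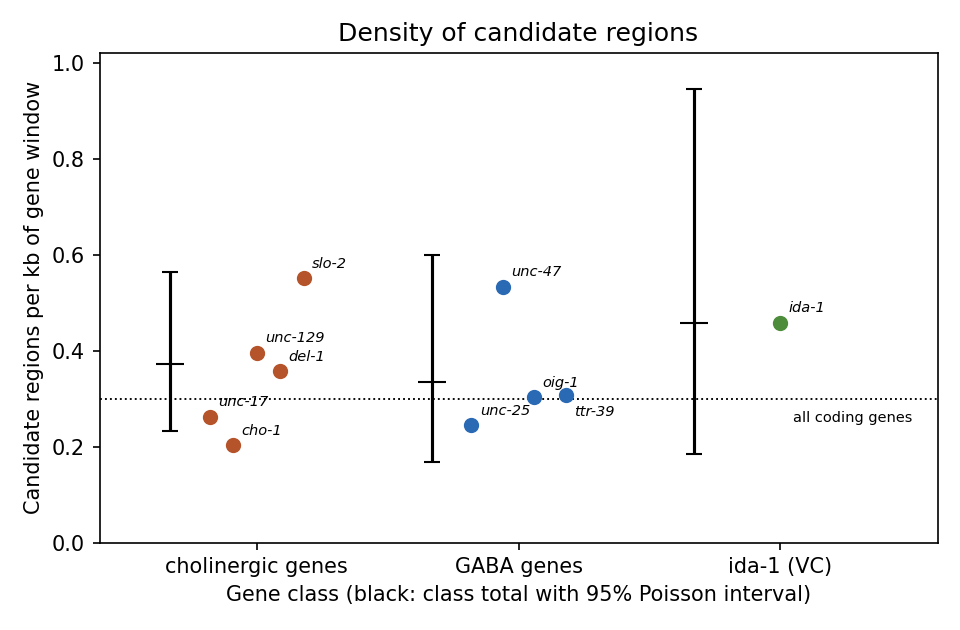
Candidate regions per kb of window for each gene (points), and for each class as a whole with its 95% exact Poisson interval (black). The dotted line is the 0.299 per kb of all coding gene windows, which lies inside the interval of each class.

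The median best joint rank was 9493 over the 5 cholinergic genes and 2170 over the 4 GABA genes, against 7785 over coding genes with a region. The ranges overlapped, with 639 (slo-2) to 10439 (unc-129) among cholinergic genes and 531 (ttr-39) to 12117 (unc-47) among GABA genes. In replicate 1 alone the middle cholinergic gene was cho-1 at rank 9191, and the GABA genes stood at 423 to 6784. In replicate 2 alone the middle one was unc-129 at rank 4592. The GABA genes lay on both sides of it, at 1449, 3124, 7718 and 8499, so the order of the medians was not kept. Regions inside rank 2000 were found at 1 of 5 cholinergic and 2 of 4 GABA genes, where the share over all coding genes was 13.8%. In replicate 1 alone the genes of either class with one were slo-2 (cholinergic) and ttr-39 (GABA). In replicate 2 alone they were del-1 and slo-2 (cholinergic) and oig-1 (GABA). Regions matched in both replicates were 6 of 22 (27.3%, exact interval 10.7 to 50.2) at cholinergic genes and 4 of 11 (36.4%, exact interval 10.9 to 69.2) at GABA genes. Genes of a class are not replicates, and with 5 and 4 of them the difference was not tested.

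In position, cholinergic regions lay mostly inside genes, with 10 in introns, 4 in coding exons, 1 in a non-coding part of an exon and 7 upstream. Of the GABA regions 7 of 11 were upstream, 3 intronic and 1 coding. Within 1000 bp of a 5′ end of the gene itself were 8 of 22 cholinergic and 7 of 11 GABA regions, and 1 of the 7 at ida-1. Gene length moved with this, since the median window was 11.4 kb for cholinergic and 7.1 kb for GABA genes. Every window held the same 5 kb upstream. That stretch made up more of the GABA windows (32.8 kb for 4 genes) than of the cholinergic windows (59.2 kb for 5 genes). The position counts were not set against these parts of the windows or against the whole list, so no class difference in position was established. The part of gene length in the result was not tested. Over all 10 genes, 29 of 40 regions had the gene itself as the nearest coding 5′ end and 4 lay inside another coding gene. The same shares over all coding gene windows were not computed. The window rule itself favours summits near the gene's own 5′ end, so these counts are a description only.

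None of the 5 words was found at most of the 40 regions. TGATNNAT was found within 100 bp of 4 of the 40 summits, against 17% of the whole list, of which unc-129 had 2, del-1 1 and ida-1 1. TAATTA stood at 5 (12.5%; 9.22% of the whole list), with 3 at slo-2 and 2 at ida-1. TAATCC was at 2 of 22 cholinergic regions, both at slo-2, and at 3 of 11 GABA regions, 1 each at unc-25, unc-47 and ttr-39; over the 40 this was 12.5%, against 7.19% of the whole list. CCCNNGGG was found at the unc-25 site alone (2.5%; 0.727% of the whole list). GAGAGA was at 3 of the 40 (7.5%; 13.1% of the whole list). A match is a description of letters and not of binding.

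Other genes of the same pathways were counted from 4 lists. Of 22 listed genes 21 were found under their symbol, the exception being nca-1. All 21 had a candidate region (87.7% of coding genes), 18 had one matched in both replicates (52.7% of coding genes), 4 had one inside rank 2000 (13.8% of coding genes) and 0 had an optimal peak (2.54% of coding genes). Their windows ran from 5.8 kb (flp-11) to 36.4 kb (unc-53), most of them longer than the 7.03 kb median of coding genes. Long windows hold more regions, and these counts were not split by window length. In the GABA and D-type list 3 of 6 genes had a matched region, and in the other lists every gene found had one. Each of the 4 lists supplied 1 of those inside rank 2000. For acetylcholine synthesis and breakdown (4 genes) it was ace-1, an acetylcholinesterase gene, with an intronic region at joint rank 1225 and ranks of 9155 in replicate 1 and 1604 in replicate 2. For other cholinergic motor neuron genes (7 found) it was acr-12, an acetylcholine receptor subunit gene, at joint rank 1406 with rank 513 in replicate 1 and no match in replicate 2. For GABA and D-type neuron genes (6) it was snf-11, the gene of a GABA transporter of the plasma membrane. That region, 619 bp upstream, had joint rank 1274 and stood at rank 631 in replicate 1 and rank 1899 in replicate 2, inside 2000 in each. For VC genes (4) it was srb-16, a chemoreceptor-family gene, whose region at joint rank 1640 lay 4855 bp upstream and was nearer to srb-12.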

How the data were processed

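LIN-39 ChIP-seq candidate regions from 2 biological replicates of 1 group were analysed. Per the deposited text files, the candidate list of each replicate was derived from that replicate's alignments and 1 further file shared by both, whose content is not described. The joint list came from both replicates' alignments, and the optimal list from the 3 candidate lists. Neither aligner, nor caller, nor threshold is stated there or in the labels. The deposited signal value per region is the authors' own, its reference is not stated, and it was used only to rank regions within 1 list. Lists on ce10 were not used. The ce11 coordinates are 1-based, and no region ended beyond a WBcel235 chromosome.

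Members, pathway lists and words were chosen with earlier results of these data known. All 10 members were named, and pathway genes where a region ranked inside 2000. No hypothesis test was run, and no column of another series was used. Window and matching code was tested on simulated regions. Alternatives covered the window, overlap, rank limits and each replicate alone. The split by window length, the replicates' own 2000 strongest, the share of all coding genes with a match at rank 10000 in each and the omission of slo-2 were added after seeing the data. Python 3.11.15, NumPy 2.4.6, pandas 2.3.3 and SciPy 1.17.1 were used.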

Additional observations from a re-analysis of the deposited data

How the results depend on the processing

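No member's best joint rank moved by over 1.5 times with windows of 2 kb or 10 kb upstream, with windows stopped at the nearest coding gene, or with any overlap in place of the summit. With 1 replicate's list in place of the joint list, best ranks moved by more than that at 8 of 10 genes in replicate 2 and 5 of 10 in replicate 1, and the median best rank, 2992.5 in the joint list, ranged from 4729.5 to 5134.5. Genes with a region matched in both replicates numbered 8 with 5 kb upstream, 7 with 2 kb and 9 with 10 kb. Requiring overlap of at least 50% or summits within 100 bp left 7 of 8 genes with a matched region, without unc-129. Asking for a rank of 10000 or stronger in each replicate left 2 (15.4% of coding genes). For regions inside a joint rank limit, 4 genes at 2000 became 6 at 5000 and 0 at a limit equal to the length of the optimal list. The share of coding genes was not computed for the other window lengths, the stricter matching or the changed joint rank limits. The ratio of cholinergic to GABA regions per kb, 1.11, crossed 1 under several settings. It was 1.05 with 2 kb and 1.4 with 10 kb upstream (0.345 against 0.246 per kb). It was 0.933 with windows stopped at the nearest coding gene, 0.994 with ida-1 among the GABA genes, 0.971 over regions of rank 10000 or stronger and 0.906 without slo-2, the last chosen after seeing the data. Over the single replicates it ranged from 0.939 to 1.06. The cause of these shifts was not tested. No paired analysis was possible because there was 1 group. Read depth is unknown, so a weak rank is not an absence of binding.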
